A study of Homo sapiens with 6 samples.

Results

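The RAB27 GTPases and the proteins that bind them were examined as a family of 10 genes in WM266.4 cells after silencing of RIPK4. The family comprised the GTPase genes RAB27A and RAB27B, the 5 synaptotagmin-like genes SYTL1 to SYTL5, melanophilin (MLPH), myosin Va (MYO5A) and exophilin 5 (EXPH5). It was selected on gene name around 1 measured value, the lower SYTL5 level in RIPK4.si than in neg.si in these same libraries. The SYTL5 difference is therefore given as a description, with no test. Of the 10 genes, 9 were found by symbol among the 24526 genes of the count table, 8 of them passed the filter on low counts, which left 16297 genes to test, and RAB27B was not analysed here. RNA-seq libraries were made from WM266.4, an established human melanoma cell line, 48 h after transfection with short interfering RNA (siRNA). The cells of 3 libraries received negative control siRNA (neg.si) and those of the other 3 received RIPK4-specific siRNA (RIPK4.si). The study describes 3 independent experiments, and the labels do not say whether libraries of the same number came from the same one. No other treatment or genetic change was given. The RIPK4.si group rests on 1 siRNA in 1 cell line, so an effect of this siRNA on other transcripts and an effect of lower RIPK4 cannot be told apart.

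RAB27A and RAB27B are small GTPases that sit on melanosomes and other secretory vesicles and, when bound to GTP, recruit effector proteins. In melanocytes, MLPH bridges RAB27A on the melanosome to the actin motor MYO5A, and loss of any one of these proteins leaves pigment gathered around the nucleus. The synaptotagmin-like proteins bind RAB27 through an N-terminal domain and membrane lipids through C-terminal C2 domains, and help to bring vesicles to the plasma membrane.

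The sequences before the annotated starts of SYTL5 are shown because SYTL5 had the lowest log2 fold change of the family. Those of SYTL4, the other gene of the family with every RIPK4.si library below every neg.si library, and of RAB27A and MLPH, whose groups overlapped, are shown beside them. Each line gives the 250 bases before a RefSeq start, 5′ to 3′ on the strand of the gene, in build GRCh38.p14. Capitals mark CACGTG, the palindromic E-box, a sequence that the melanocyte transcription factor MITF can bind. The SYTL5 windows are chrX:38006303-38006552 and chrX:38033284-38033533 on the plus strand. The SYTL4 window is chrX:100732122-100732371 and the RAB27A window chr15:55319124-55319373, both on the minus strand. The MLPH window is chr2:237487001-237487250 on the plus strand.
SYTL5, upstream start: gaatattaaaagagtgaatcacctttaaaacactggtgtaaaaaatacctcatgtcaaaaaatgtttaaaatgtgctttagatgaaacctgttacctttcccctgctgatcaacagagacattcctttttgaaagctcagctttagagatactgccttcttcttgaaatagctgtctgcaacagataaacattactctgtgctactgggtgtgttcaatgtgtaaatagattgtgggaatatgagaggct
SYTL5, downstream start: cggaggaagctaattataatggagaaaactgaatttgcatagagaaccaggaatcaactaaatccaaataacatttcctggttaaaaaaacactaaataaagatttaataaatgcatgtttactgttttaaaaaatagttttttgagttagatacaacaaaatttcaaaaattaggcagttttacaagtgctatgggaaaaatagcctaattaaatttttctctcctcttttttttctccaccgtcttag
SYTL4, upstream start: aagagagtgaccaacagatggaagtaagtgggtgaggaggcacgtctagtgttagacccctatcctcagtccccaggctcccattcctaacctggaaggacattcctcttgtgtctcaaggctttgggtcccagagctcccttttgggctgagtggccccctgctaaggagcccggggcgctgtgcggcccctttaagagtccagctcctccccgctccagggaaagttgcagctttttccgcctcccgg
RAB27A, upstream start: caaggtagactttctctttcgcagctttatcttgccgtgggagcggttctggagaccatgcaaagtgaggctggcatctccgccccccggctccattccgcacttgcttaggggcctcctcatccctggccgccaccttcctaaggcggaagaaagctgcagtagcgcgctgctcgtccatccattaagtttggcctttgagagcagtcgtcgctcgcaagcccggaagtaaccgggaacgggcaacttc
MLPH, downstream start: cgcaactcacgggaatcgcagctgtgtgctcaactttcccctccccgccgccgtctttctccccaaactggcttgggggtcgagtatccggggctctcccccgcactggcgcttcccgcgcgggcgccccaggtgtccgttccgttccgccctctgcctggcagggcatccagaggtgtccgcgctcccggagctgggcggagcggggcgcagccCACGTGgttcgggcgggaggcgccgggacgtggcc

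RefSeq starts were found for 8 of the 9 genes, 18 starts in all, and SYTL2 had no entry in the table used. The SYTL5 windows held 36.0% and 28.4% G and C, the lowest values of the 18, at the 6.95th and 0.965th percentile of the 35116 windows of all genes. The SYTL4 and RAB27A windows printed above each held 58.8% and the MLPH window 72.4%. Only 1 of 5 RAB27A windows, 1 of 2 SYTL4 windows and 1 of 2 MLPH windows is printed. The other RAB27A windows held 37.2% to 45.6%, the other SYTL4 window 70.8% and the other MLPH window, which has no CACGTG, 41.6%. CATGTG, the core of the M-box that MITF binds in pigment genes, was searched on both strands and was in 0 of the 18 windows, against 9.42% of all windows. CACGTG, which reads the same on both strands and does not overlap CATGTG, was in 2 of the 18, against 6.35% of all windows. The first was the MLPH window, with the match 35 bases before the start and the other an EXPH5 window, with the match 80 bases before the start. These matches describe letters only, and counts per gene do not show which start was in use.

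The libraries held between 28464057 and 31688095 read pairs counted on genes. RIPK4, the targeted kinase gene, had 85.8, 76.5 and 54.7 CPM (read pairs corrected for library depth) in the neg.si libraries and 19.9, 16.7 and 21.5 CPM in the RIPK4.si libraries, a log2 fold change of -1.90 ± 0.20 (SE) with an adjusted p of 0.0102 by edgeR's quasi-likelihood test. That adjusted p rose to between 0.0622 and 0.106 when neg.si replicate 2 or any 1 of the 3 RIPK4.si libraries was left out, with the log2 fold change still between -1.98 and -1.79. The 8 melanocyte markers had at least 338 counts in every library, against at most 19 counts for the keratinocyte genes KRT5, KRT14 and DSG3, 305 to 465 for the keratin gene KRT10, and at most 31 for the 6 leukocyte and endothelial markers. The neg.si libraries differed from each other in GC content dependence. In each library, the deviation of a gene's log2 CPM from its mean over the 6 libraries was correlated by rank with transcript GC content. The correlation across genes was 0.555 in neg.si replicate 1 and -0.547 in neg.si replicate 3, against -0.0788 to 0.165 in the other 4 libraries. These values are relative to the mean of the libraries and do not measure the GC dependence of any 1 library alone.

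Levels of different genes can be compared only per transcript length, and the order of the family depended on the length used. With the union of annotated exons as length, SYTL5 at 5.92 ± 0.877 CPM per kb (SD, n = 3) and MYO5A at 5.90 ± 1.54 CPM per kb stood highest in neg.si and did not differ beyond their spread. MLPH followed at 3.65 ± 0.383, RAB27A at 3.10 ± 0.319 and SYTL2 at 2.36 ± 0.210 CPM per kb, and the MLPH and RAB27A libraries overlapped. SYTL4 lay lower at 0.558 ± 0.0767 CPM per kb, above SYTL1 at 0.171 ± 0.0710 and SYTL3 at 0.164 ± 0.0199, which overlapped each other, and EXPH5 was lowest at 0.0255 ± 0.00908. With the longest annotated transcript as length, MYO5A stood first at 21.8 ± 5.69 CPM per kb. RAB27A at 7.54 ± 0.776, MLPH at 7.24 ± 0.761 and SYTL5 at 6.004 ± 0.890 CPM per kb followed, where MLPH overlapped RAB27A and SYTL5 but RAB27A, at 6.98 and above, did not overlap SYTL5, at 6.83 and below. SYTL2 was at 3.21 ± 0.286, SYTL4 at 0.846 ± 0.116 and SYTL1 at 0.355 ± 0.148 CPM per kb. Under either length SYTL5 was the highest of the 5 synaptotagmin-like genes in neg.si, at the 59.5th percentile of 13025 tested protein-coding genes with the exon union and the 50.4th with the longest transcript.

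**Figure D1:**
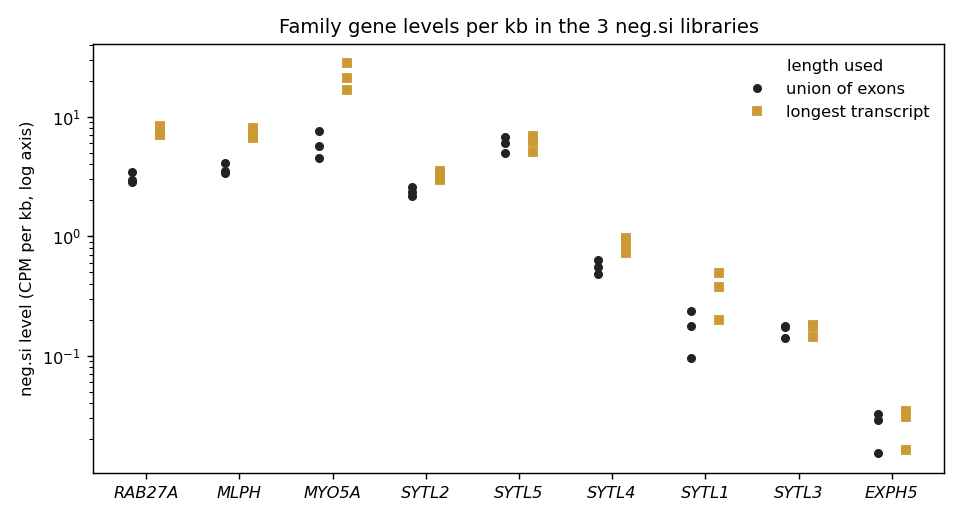
Level of each family gene in the 3 neg.si libraries in CPM per kb (log axis), one point per library, with the exon union (circles) or the longest transcript (squares) as length. MYO5A moves most between the lengths, from a mean of 5.90 to 21.8 CPM per kb, and SYTL5 stays at 5.92 and 6.004.

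SYTL5, a RAB27 effector of the synaptotagmin-like family, was lower in every RIPK4.si library. The gene, ENSG00000147041.12, lies on the plus strand of chromosome X from 38006553 to 38128819 (GRCh38). It had 24.1, 29.1 and 32.5 CPM in the neg.si libraries, from 745, 873 and 1031 read pairs, and 8.15, 9.80 and 9.94 CPM in the RIPK4.si libraries, from 239, 283 and 309 read pairs. The highest RIPK4.si library was thus below the lowest neg.si library, as it was for 9.4% of all genes tested. The mean was 28.5 ± 4.23 CPM (SD, n = 3) under neg.si and 9.29 ± 0.996 CPM in RIPK4.si, 32.6% of the control. The log2 fold change of RIPK4.si over neg.si was -1.62 ± 0.18 (SE), and it stayed between -1.71 and -1.51 under all alternatives, including -1.58 with the GC trend removed. In bulk RNA, fewer cells that express a gene and less RNA per cell cannot be told apart.

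**Figure D2:**
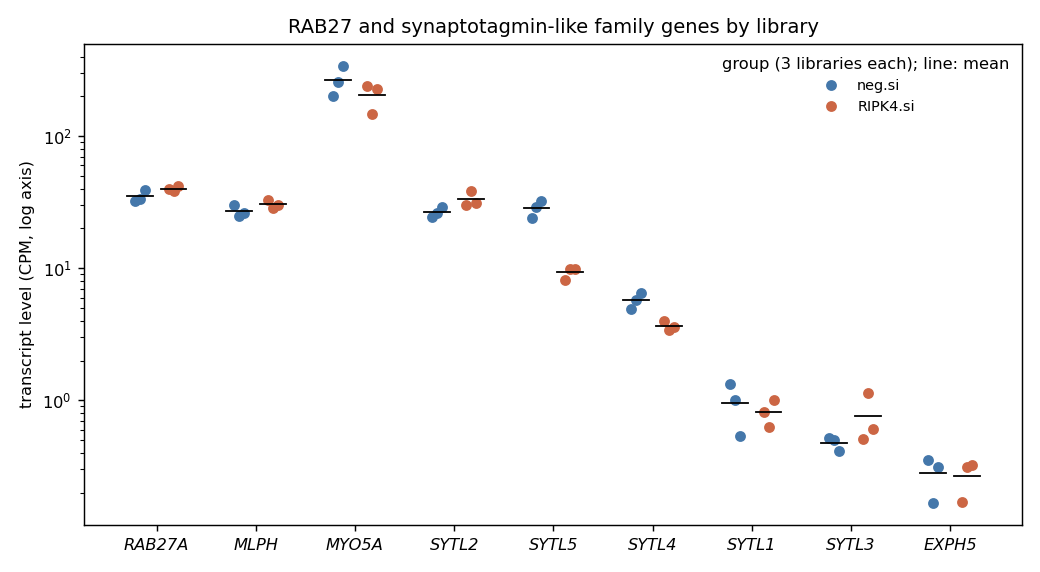
CPM of the 9 family genes in each library (log axis), with neg.si and RIPK4.si points side by side and the mean of each group. The SYTL5 points of RIPK4.si, at 8.15 to 9.94 CPM, lie below those of neg.si, at 24.1 to 32.5 CPM, and the RAB27A points, at 32.6 to 42.2 CPM over both groups, overlap.

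Of the other 7 genes tested, 0 passed an adjusted p of 0.05 by edgeR's quasi-likelihood test over all 16297 genes, 0 passed by DESeq2 and 0 with the GC trend removed. In the background of all genes tested, 0.767% passed in either direction, 0.393% lower and 0.374% higher in RIPK4.si. DESeq2 called 2.91% of the 15015 genes to which it gave an adjusted p, and edgeR with the GC trend removed called 3.28%. At an unadjusted p under 0.05, 1 of the 7 was lower (SYTL4) and 0 were higher, against 6% lower and 4.85% higher of all genes. The groups did not overlap for 2 of the 7, SYTL4 lower and SYTL2 higher, against 17.6% of all genes, 9.4% lower and 8.23% higher. The median log2 fold change of the 7 was 0.17, against -0.02 for all genes tested, of which 90% lay between -0.66 and 0.57. With 3 libraries per group the exact permutation test of a single gene cannot go below 0.1 (two-sided).

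SYTL4, or granuphilin, which docks insulin granules in pancreatic beta cells, was the only other gene of the family with all RIPK4.si libraries lower. The gene, ENSG00000102362.15, lies on the minus strand of chromosome X from 100674491 to 100732123. It had 4.94, 5.73 and 6.52 CPM in neg.si and 3.95, 3.43 and 3.57 CPM in RIPK4.si, from 99 to 207 read pairs per library. The mean was 5.73 ± 0.788 CPM (SD, n = 3) under neg.si and 3.65 ± 0.272 CPM in RIPK4.si, giving a log2 fold change of -0.65 ± 0.20 (SE). It did not pass over all genes, with an adjusted p of 0.227 by edgeR and a range from 0.0801 with the GC trend removed to 0.740 without RIPK4.si replicate 3. Its 95% interval ran from -1.10 to -0.20 without that adjustment. Exons of SYTL4 overlap exons of SRPX2 on the other strand, and the counting ignored strand, so read pairs in the overlap cannot be assigned to either gene. SRPX2 had 4.68 ± 0.0505 CPM (SD, n = 3) under neg.si and 8.43 ± 1.17 in RIPK4.si, with an adjusted p of 0.0891 by edgeR, 0.00882 by DESeq2 and 0.0203 with the GC trend removed, and its part in the SYTL4 counts was not tested.

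SYTL2, which in melanocytes holds melanosomes at the cell periphery, was the gene of the family with all RIPK4.si libraries higher. The gene, ENSG00000137501.17, lies on the minus strand of chromosome 11 from 85694224 to 85811159. It had 24.4, 26.2 and 29.1 CPM in neg.si and 30.3, 38.3 and 31.1 CPM in RIPK4.si. The gap between the groups was narrow, 29.1 against 30.3 CPM. The mean was 26.6 ± 2.36 CPM (SD, n = 3) under neg.si and 33.2 ± 4.38 CPM in RIPK4.si, giving a log2 fold change of 0.32 ± 0.16 (SE) with an adjusted p of 0.543 by edgeR and a 95% interval from -0.05 to 0.69.

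SYTL1 and SYTL3 were near the limit of detection. SYTL1, known for its part in granule release from leukocytes and lying on chromosome 1 from 27342020 to 27353937, had 17 to 41 read pairs per library in neg.si and 18 to 31 in RIPK4.si, and a log2 fold change of -0.22 ± 0.40 (SE) with an adjusted p of 0.930 by edgeR. It turned to 0.10 without neg.si replicate 1. SYTL3, on chromosome 6 from 158650014 to 158764876, had 13 to 16 read pairs in neg.si and 15, 33 and 19 in RIPK4.si. Its log2 fold change of 0.66 ± 0.41 (SE), with an adjusted p of 0.669 by edgeR, rested on RIPK4.si replicate 2 and was 0.25 without it. The 95% intervals, from -1.12 to 0.67 for SYTL1 and from -0.27 to 1.59 for SYTL3, were wide, and a difference within them was not detectable at this depth.

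The make-up of the synaptotagmin-like transcripts differed between the groups. Per kb of exon union, the 5 genes summed to 9.17 ± 1.07 CPM per kb (SD, n = 3) under neg.si and 5.64 ± 0.595 in RIPK4.si. SYTL5 made up 62.0%, 65.1% and 66.1% of that sum in the neg.si libraries and 33.2%, 32.4% and 37.1% in the RIPK4.si libraries. SYTL2 made up 26.9%, 25.1% and 25.4% in neg.si and 52.9%, 54.2% and 49.7% in RIPK4.si. SYTL5 was thus the largest share in each neg.si library and SYTL2 in each RIPK4.si library. With the longest transcript as length the means went from 56.6% to 27.7% for SYTL5 and from 30.4% to 56.7% for SYTL2, the same change of order. These shares contain the SYTL5 values that chose the family, and a share of one gene rises whenever another falls, so they carry no test.

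**Figure D3:**
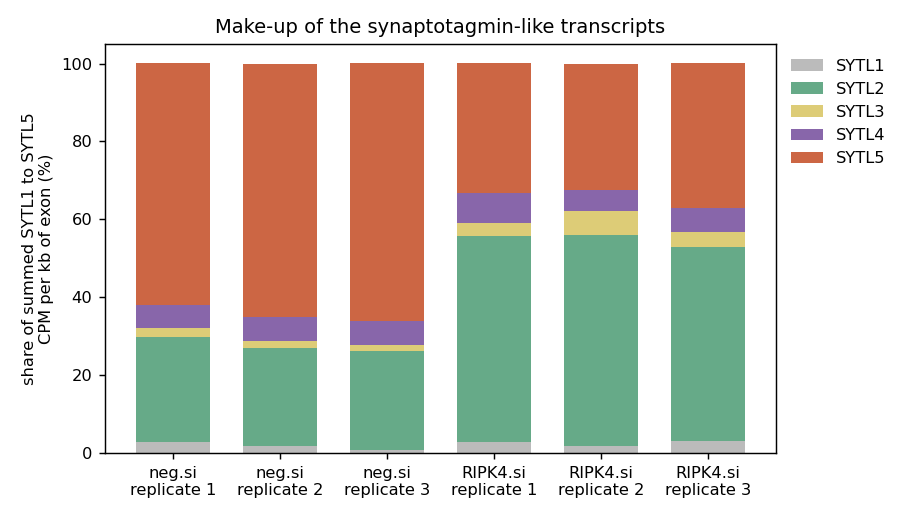
Share of the summed SYTL1 to SYTL5 level (percent of CPM per kb of exon union) taken by each gene, one stacked bar per library. SYTL5 takes 62.0% to 66.1% of the neg.si bars and 32.4% to 37.1% of the RIPK4.si bars, and SYTL2 takes 25.1% to 26.9% and 49.7% to 54.2%.

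RAB27A and MLPH, the melanosome GTPase and its adaptor, overlapped between the groups. RAB27A, ENSG00000069974.16, on the minus strand of chromosome 15 from 55202966 to 55319113, had 32.6, 33.6 and 39.3 CPM in neg.si and 39.6, 38.5 and 42.2 CPM in RIPK4.si. RIPK4.si replicates 1 and 3 lay above every neg.si library, and replicate 2 lay between neg.si replicates 2 and 3. The log2 fold change was 0.19 ± 0.15 (SE) with an adjusted p of 0.779 by edgeR and a 95% interval from -0.15 to 0.53. MLPH, ENSG00000115648.14, on the plus strand of chromosome 2 from 237485428 to 237555322, had 30.4, 25.01 and 25.97 CPM in neg.si and 32.8, 28.7 and 29.9 CPM in RIPK4.si. Here neg.si replicate 1 lay within the RIPK4.si range. The log2 fold change was 0.17 ± 0.16 (SE) with an adjusted p of 0.822 by edgeR and a 95% interval from -0.18 to 0.52. The intervals of both genes leave room for a change of either sign. RAB27A shares exon sequence with PIGB on the other strand, at 17.2 ± 1.88 CPM (SD, n = 3) under neg.si and 19.1 ± 2.22 in RIPK4.si, and with PIGBOS1, at 4.10 ± 0.836 and 3.58 ± 1.06 CPM, and neither passed by edgeR (adjusted p = 0.869 and 0.910).

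MYO5A, the actin motor of the complex, varied widely between libraries of the same group. The gene, ENSG00000197535.14, lies on the minus strand of chromosome 15 from 52307283 to 52529050, 2.67 Mb from RAB27A. It had 202.9, 256.2 and 341.0 CPM in neg.si and 237.9, 146.4 and 226.0 CPM in RIPK4.si. The groups overlapped, neg.si replicate 3 was the highest library and RIPK4.si replicate 2 the lowest. The log2 fold change was -0.39 ± 0.24 (SE) with an adjusted p of 0.661 by edgeR, and it was -0.17 once neg.si replicate 3 was left out and -0.19 once RIPK4.si replicate 2 was. EXPH5, a RAB27 effector known from keratinocytes, on chromosome 11 from 108505435 to 108593768, had 5 to 11 read pairs in neg.si and 5 to 10 in RIPK4.si, failed the filter on low counts and was not tested.

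**Figure D4:**
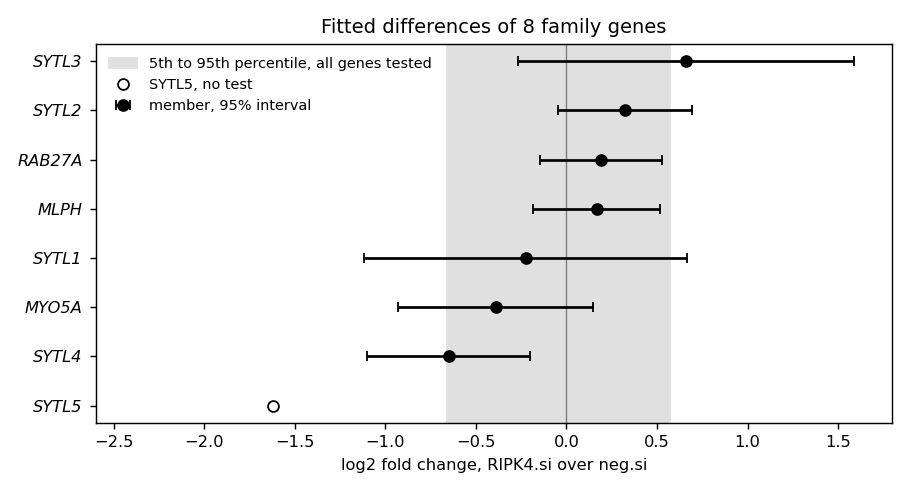
Log2 fold change of RIPK4.si over neg.si for the 8 family genes that passed the low-count filter (points), with 95% intervals (bars) for the 7 that were tested. The grey band holds the 5th to 95th percentile of all genes tested, from -0.66 to 0.57, and SYTL5, on which the family was selected and which carries no test, is drawn open at -1.62.

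Across the 6 libraries, the genes whose log2 CPM followed SYTL5 most closely were SHC4 (Pearson r = 0.998), RCOR1 (0.997), ZNF584 (0.995), ATP7B (0.995) and NT5E (0.993), out of 13045 protein-coding genes. The 6 points fall into the 2 groups compared, so r mostly follows the gap between the groups and is a description only, and 368 genes had r over 0.9. SHC4, an adaptor of receptor tyrosine kinases, had 43.1 ± 3.48 CPM (SD, n = 3) under neg.si and 21.1 ± 1.92 in RIPK4.si. RCOR1, a subunit of a histone demethylase complex, had 64.7 ± 5.01 and 36.0 ± 2.02 CPM, and NT5E, the ecto-enzyme CD73, 477.1 ± 51.2 and 291.7 ± 12.4 CPM. ZNF584 and the copper transporter gene ATP7B were at 83.9% and 73.4% of their neg.si means. These 5 genes were picked for following SYTL5, so no test of their own differences is given. In the family, SYTL4 had r = 0.942 with SYTL5 and MYO5A 0.576, whereas MLPH had r = -0.755, SYTL2 -0.677, RAB27A -0.614, SYTL3 -0.584 and SYTL1 0.0572. RIPK4 had r = 0.925.

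The genes that work with RAB27 were counted from lists written from general knowledge. Of 11 tested among 14 other RAB27 effectors and regulators, 0 passed by edgeR's adjusted p, 0 had an unadjusted p under 0.05 and 0 passed by DESeq2, with a median log2 fold change of -0.08. Of all genes, 0.767% passed by edgeR and 2.91% by DESeq2, and 6% were lower and 4.85% higher at the unadjusted level, so counts of 0 in a list of this size say little about it. CHML, an escort protein for attaching lipid to RAB proteins, had 69.8 ± 36.9 CPM (SD, n = 3) under neg.si and 102.0 ± 16.5 in RIPK4.si, with neg.si replicate 3 at 112.4 CPM against 46.6 and 50.4 CPM in the other neg.si libraries. Its log2 fold change of 0.55 ± 0.32 (SE, adjusted p = 0.626 by edgeR) was 1.08, with an adjusted p of 0.0140, without that library.

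Among 12 tested genes for RAB3 and other secretory RABs, 0 passed by edgeR, 1 was lower and 1 higher at an unadjusted p under 0.05, and 1 passed by DESeq2, beside the same shares of all genes, 6% lower, 4.85% higher and 2.91% by DESeq2. The higher gene was RAB7A, a GTPase of late endosomes, at 118.2, 122.9 and 168.4 CPM in neg.si and 258.9, 187.1 and 243.5 CPM in RIPK4.si. The groups did not overlap, and its log2 fold change of 0.75 ± 0.19 (SE) had an adjusted p of 0.141 by edgeR, 0.0138 by DESeq2 and 0.0349 with the GC trend removed. The lower gene was RAB3D, a secretory granule GTPase, with 6.87 ± 1.61 and 4.47 ± 0.0572 CPM (SD, n = 3) and an adjusted p of 0.309 by edgeR.

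Of 27 tested genes of melanosome biogenesis and transport, 0 passed by edgeR and 3 by DESeq2, with 4 lower and 2 higher at an unadjusted p under 0.05 and a median log2 fold change of -0.08. Of all genes, 2.91% passed by DESeq2, and 6% were lower and 4.85% higher at the unadjusted level. BLOC1S2, a subunit of a complex that sorts cargo to melanosomes, had 42.3 ± 2.74 CPM (SD, n = 3) under neg.si and 25.9 ± 2.92 in RIPK4.si, giving a log2 fold change of -0.71 with an adjusted p of 0.0880 by edgeR, 0.0136 by DESeq2 and 0.0784 with the GC trend removed. MYO7A, an unconventional myosin, had 10.2 ± 0.917 and 6.16 ± 0.489 CPM, a log2 fold change of -0.73 with an adjusted p of 0.123 by edgeR, 0.0353 by DESeq2 and 0.0465 with the GC trend removed. In both genes every RIPK4.si library was below every neg.si library, as in 4 of the 27, and in 3 of the 27 every one was above, against 9.4% and 8.23% of all genes.

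Among the 8 melanocyte markers, PMEL, which forms the fibrils on which melanin is laid down, fell from 280.0 ± 31.5 to 113.6 ± 8.11 CPM (SD, n = 3), a log2 fold change of -1.30 ± 0.15 (SE) with an adjusted p of 0.0111 by edgeR. It was the 1 gene that passed of the 107 tested in the lists outside the family, or 0.935%, against 0.767% of all genes. Its adjusted p rose to between 0.0738 and 0.129 when neg.si replicate 2 or any 1 of the RIPK4.si libraries was left out. DCT and TYR, enzymes of melanin synthesis, had log2 fold changes of -0.73 and -0.57 with adjusted p of 0.0854 and 0.148 by edgeR and 0.00352 and 0.0407 by DESeq2, and with the GC trend removed 0.0206 for DCT and 0.117 for TYR. S100B had a log2 fold change of -0.48 (adjusted p = 0.391 by edgeR). MITF was at 347.7 ± 53.2 and 357.9 ± 17.1 CPM (SD, n = 3), a log2 fold change of 0.04 that was -0.05 without neg.si replicate 1. The other 3 markers, named after their values were seen, had log2 fold changes of 0.36 for TYRP1 (adjusted p = 0.502 by edgeR), 0.06 for MLANA (0.963) and -0.15 for SOX10 (0.876), so 5 of the 8 lay below 0 and 3 above. MLANA was at -0.01 without neg.si replicate 3 and at -0.02 without RIPK4.si replicate 2. SOX10 was at -0.0088 without neg.si replicate 1 and at -0.29 without neg.si replicate 3. TYRP1 was at 0.24 without RIPK4.si replicate 2 and at 0.49 without RIPK4.si replicate 1. Over the 8 markers the summed level was 3573 to 4012 CPM in the neg.si libraries and 2635 to 2759 CPM in the RIPK4.si libraries, a sum to which abundant genes such as TYR, at 1348 and 910.7 CPM on average, add most. In 3 of the 8 all RIPK4.si libraries were lower, against 9.4% of all genes. None of the 8 was at 0. PMEL and the summed marker level were lower in the same libraries as SYTL5, and their part in the SYTL5 difference was not tested.

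**Figure D5:**
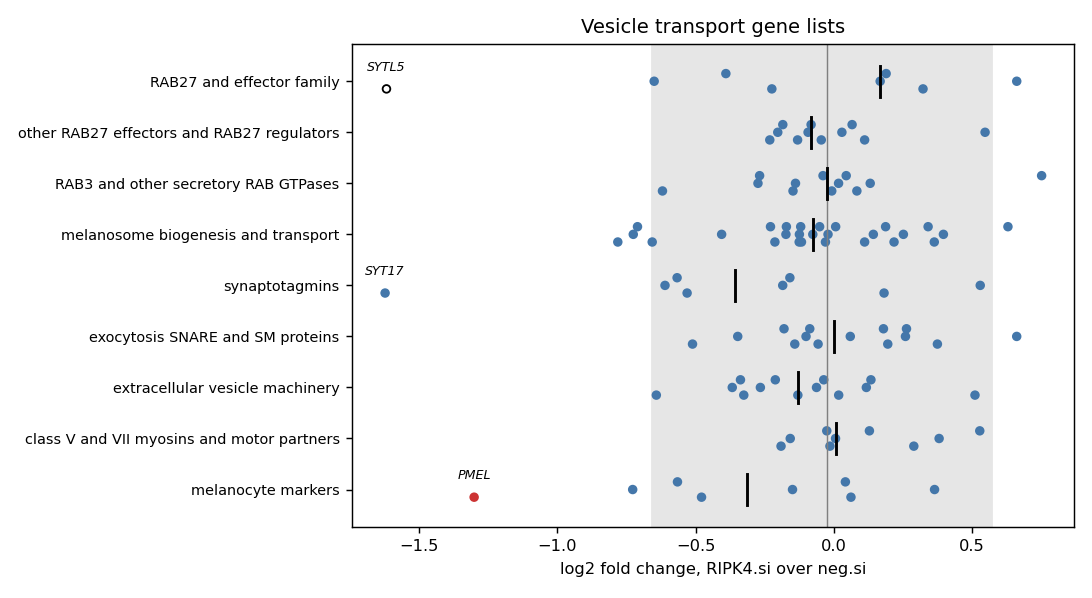
Log2 fold change of RIPK4.si over neg.si for each tested gene of 9 lists (points), with list medians as black bars (the family without SYTL5), the median of all genes tested as a grey line and their 5th to 95th percentile as a grey band. PMEL, at -1.30, is the 1 gene with an adjusted p under 0.05 (red), and SYTL5, which carries no test, is drawn open.

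Synaptotagmins proper, a family of membrane proteins with C2 domains of which some sense calcium in exocytosis and others do not bind it, were lower in 3 of 8 tested genes at an unadjusted p under 0.05 and higher in 0, with 0 passing by edgeR's adjusted p and 0 by DESeq2. Of all genes, 6% were lower and 4.85% higher at that level. The median log2 fold change was -0.36. SYT11, at 63.1 ± 6.44 and 42.6 ± 2.81 CPM (SD, n = 3), had an adjusted p of 0.148 by edgeR and 0.0377 with the GC trend removed. SYT6, at 23.3 ± 3.06 and 15.2 ± 0.399 CPM, had an adjusted p of 0.156 by edgeR, and SYT17, at 21, 23 and 37 read pairs in neg.si and 6, 10 and 9 in RIPK4.si, one of 0.133. For each of these 3 genes every RIPK4.si library was below every neg.si library, as it was for 9.4% of all genes.

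The fusion, vesicle and motor lists gave 0 calls by edgeR and 0 by DESeq2, against 0.767% and 2.91% of all genes. Of 14 SNARE and SM genes, which drive membrane fusion, 2 were lower and 2 higher at an unadjusted p under 0.05, against 6% and 4.85% of all genes. STX2, a syntaxin, was at 11.03 ± 2.29 and 17.5 ± 3.25 CPM (SD, n = 3) with an adjusted p of 0.255 by edgeR (0.0452 with the GC trend removed). Of 13 genes of extracellular vesicle machinery, 1 was lower and 0 higher at that unadjusted level. This was the tetraspanin CD9, at 84.5 ± 19.5 and 54.1 ± 5.86 CPM (SD, n = 3), with an adjusted p of 0.212 by edgeR and 0.0390 without neg.si replicate 3. Of 9 class V and VII myosins and motor partners, 0 were lower and 1 higher at that level, DYNC1H1, the dynein heavy chain, with an adjusted p of 0.398 by edgeR. Of the marker lists, KRT10 was the 1 keratinocyte gene that could be tested, with 10.5 ± 0.347 CPM (SD, n = 3) in the neg.si group and 13.9 ± 2.13 in RIPK4.si, every RIPK4.si library higher, and a p by edgeR of 0.0450 before adjustment and 0.438 after it, and 0 of the 4 leukocyte and endothelial markers tested passed at an unadjusted p under 0.05.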

How the data were processed

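RNA was measured by RNA-seq in 6 libraries, 3 neg.si and 3 RIPK4.si. Reads were trimmed with Cutadapt, mapped with TopHat to GRCh38.p13 and counted per gene as read pairs by HTSeq, ignoring strand, as the study's methods describe. The deposited counts are raw whole numbers of read pairs and were the values used here. Other deposited columns hold signal, the counts after scaling by each library's DESeq2 size factor, and the mean of that. The deposited fold (a ratio), log2 fold change, its standard error (a score with no fixed range), p-value and adjusted p (other values, with text where a gene had none) came from the authors' own comparison and were not used.

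Raw counts went into edgeR 4.0.16 (R 4.3.3) with TMM scaling, its low-count filter and a quasi-likelihood test with Benjamini-Hochberg adjustment over all 16297 genes. A call is an adjusted p under 0.05. CPM use TMM library sizes. Each standard error was derived from the log2 fold change and its F statistic. Alternatives were DESeq2 1.42.0, edgeR with upper-quartile scaling or with DESeq2's size factors, no filter, at least 10 counts in every library, removal of each library's GC trend by a lowess of span 0.3, a replicate block and each library left out. Gene lengths and GC content came from GENCODE release 44, which held 24416 of the 24526 identifiers, and promoters from RefSeq. Intervals are 95% intervals of the fit.

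The members and gene lists were chosen with earlier results of these data known. Named are all members, RIPK4, in each other list every called gene, the 2 with the smallest p and up to 4 of high level, and the 5 protein-coding genes most like SYTL5. SRPX2, PIGB and PIGBOS1 were added because their exons overlap those of members, and TYRP1, MLANA and SOX10 were named after their values were seen. Further list genes outside this rule are given only as counts. Some genes that the rule names are not reported here. Replicates differed by far more than sampling noise (chi-square per degree of freedom 18.4 to 132.3), so none were the same library deposited again. P-values set the difference between the groups against the spread between these libraries, which all come from a single cell line. Tables and plots were made in Python 3.11.15 (scipy 1.17.1, pandas 2.3.3, numpy 2.4.6, matplotlib 3.10.9).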

Additional observations from a re-analysis of the deposited data

How the results depend on the processing

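SYTL5 kept its direction and a log2 fold change between -1.71 and -1.51 with any 1 library left out and under every other alternative, and the count of the other family genes called was 0 under all of them. The number of genes called over the whole table, 125 by edgeR (64 lower and 61 higher), was 437 by DESeq2 and 532 with the GC trend removed. With 1 library left out it ran from 0 to 295: 0 without neg.si replicate 2, RIPK4.si replicate 1 or RIPK4.si replicate 3 (1153, 1426 and 1086 genes at an unadjusted p under 0.05), 4 without RIPK4.si replicate 2, 70 when neg.si replicate 1 and 295 when neg.si replicate 3 was dropped. In the other lists, with 107 genes tested, the 1 call became 7 by DESeq2, 8 with the GC trend removed and 0 to 5 with 1 library left out, where 0.767% of all genes were called by edgeR, 2.91% by DESeq2 and 3.28% with the GC trend removed. For RIPK4 the log2 fold change ran from -2.06 to -1.74 with 1 library left out. With 1 library left out, the log2 fold change of SYTL1 ran from -0.51 to 0.10 and that of MITF from -0.054 to 0.15. Each changed sign when neg.si replicate 1 was dropped. The log2 fold change of PTPRC ran from -0.56 to 0.044, changing sign when RIPK4.si replicate 1 was dropped, and has no value without RIPK4.si replicate 2. PIGBOS1 ran from -0.38 to 0.033, changing sign when RIPK4.si replicate 2 was dropped, and MLANA from -0.019 to 0.16, changing sign when neg.si replicate 3 or RIPK4.si replicate 2 was dropped. No other log2 fold change given in the text changed sign under the alternatives run. The cause was not tested.

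The labels do not say whether replicate numbers pair the samples. The samples were not treated as paired, because the deviations of same-numbered libraries correlated at -0.242, 0.251 and 0.346, not all above 0.1. This check cannot decide the pairing, because deviations from a group mean depend on each other and the libraries also differed in GC trend. Among the RIPK4.si libraries, neg.si replicate 2 correlated best with its own number (0.251) and neg.si replicate 1 with replicate 2 (0.413). For neg.si replicate 3 the correlations with RIPK4.si replicates 3 and 1 were almost equal (0.346 and 0.343). With a replicate block 131 genes were called, the SYTL5 log2 fold change was -1.61 and that of RIPK4 -1.88. Depth limits SYTL1, SYTL3 and EXPH5, which had at most 41 read pairs in a library. The scaling alternatives moved the median log2 fold change of all genes by less than 0.1. The length used moved the levels per kb of SYTL1, SYTL2, SYTL4, RAB27A, MLPH and MYO5A by more than 1 SD of the neg.si libraries, although the SYTL1 libraries overlapped between the lengths.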
